A study of Rattus norvegicus with 4 samples.

Results

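Oligodendrocytes and their precursors were followed in the hypothalamus through 36 genes, named as markers of precursors, of newly formed cells or of mature, myelin-forming cells. A probe belonged to the set when its symbol in the deposited normalized table was that of a listed gene, regardless of case and of a _predicted or _mapped ending. This rule found 33 of 22523 probes, for 32 of the 36 genes (2 probes for Ndrg1); Mobp, Fa2h, Ermn and Gal3st1 had no probe under these names. Of the 32 genes, 29 were detected in all 4 samples at a detection p under 0.01, Enpp6 and Gjb1 in 3 samples each, and Olig2 in none. All stages named by the set were therefore seen, with 2 of 2 precursor genes, 4 of 5 transcription factors, 2 of 3 early genes and 21 of 26 mature genes detected in all samples.

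The RNA came from hypothalami of male Wistar rats aged 4 months and was labelled and hybridised to Illumina bead arrays, whose probes are short DNA strands held on beads. The 4 groups were FR30 offspring on a high-fat (HF) diet, FR30 offspring on standard diet, control offspring on HF diet and control offspring on standard diet. FR30 names rats that were undernourished before birth, and the labels give no further detail of the undernutrition or of the diets. Each group is 1 sample; the labels do not say whether it holds 1 animal or a pool. Between 10579 and 11122 probes were detected per sample, and 11 of 12 marker genes of hypothalamic neurons were detected in all samples. The deposited table gives an SD beside each signal without saying what it was taken over, with a median between 3.20% and 3.41% of the signal. A pairwise difference has no replicate check and is given by size, in log2 units of background-corrected, quantile-normalized values. In such bulk samples fewer cells of a type and less RNA per cell cannot be told apart.

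Oligodendrocytes wrap axons in myelin, a stack of lipid-rich membrane that speeds conduction. They arise from dividing precursors that carry the receptor Pdgfra and the proteoglycan Cspg4 (NG2), pass through a short-lived stage marked by Enpp6 and Bcas1, and then make myelin proteins and lipids under transcription factors such as Sox10 and Olig2. The adult hypothalamus keeps precursors, and its median eminence is known for a turnover of these cells.

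The region upstream of the start site is shown for 5 members, because SOX factors such as Sox10 are known to act on genes of this lineage. They are the mature genes Mag, Opalin and Cnp, the early gene Enpp6 and the precursor gene Pdgfra. Each sequence is the 250 bases before the start, 5′ to 3′ on the strand of the gene, from RefSeq, build GRCr8. Capitals mark the core words of SOX factors that were searched, ACAAAG and ACAATG, on either strand (read as CTTTGT and CATTGT on the other). The positions are chr1:95291045-95291294 (minus strand) for Mag, chr1:249858191-249858440 (minus) for Opalin, chr10:86011254-86011503 (plus) for Cnp, chr16:52026729-52026978 (minus) for Enpp6 and chr14:33408517-33408766 (minus) for Pdgfra.
Mag: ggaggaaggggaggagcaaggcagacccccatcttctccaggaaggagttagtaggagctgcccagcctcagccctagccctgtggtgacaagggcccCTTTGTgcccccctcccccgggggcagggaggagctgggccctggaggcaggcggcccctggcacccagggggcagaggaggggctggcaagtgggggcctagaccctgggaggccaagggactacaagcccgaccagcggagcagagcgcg
Opalin: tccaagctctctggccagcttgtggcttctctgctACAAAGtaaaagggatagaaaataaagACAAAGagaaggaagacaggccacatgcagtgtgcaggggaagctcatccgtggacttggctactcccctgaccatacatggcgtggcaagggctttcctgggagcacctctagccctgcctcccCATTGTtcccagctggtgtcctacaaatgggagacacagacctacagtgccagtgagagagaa
Cnp: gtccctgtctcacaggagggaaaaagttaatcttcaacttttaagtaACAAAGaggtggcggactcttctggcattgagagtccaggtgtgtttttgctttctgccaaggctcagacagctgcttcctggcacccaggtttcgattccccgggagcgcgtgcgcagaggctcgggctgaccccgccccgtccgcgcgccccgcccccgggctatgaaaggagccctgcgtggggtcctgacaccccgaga
Enpp6: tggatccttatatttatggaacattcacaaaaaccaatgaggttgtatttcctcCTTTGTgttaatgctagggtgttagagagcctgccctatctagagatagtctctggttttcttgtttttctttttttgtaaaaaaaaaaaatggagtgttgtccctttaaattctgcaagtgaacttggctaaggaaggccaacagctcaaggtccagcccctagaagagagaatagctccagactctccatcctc
Pdgfra: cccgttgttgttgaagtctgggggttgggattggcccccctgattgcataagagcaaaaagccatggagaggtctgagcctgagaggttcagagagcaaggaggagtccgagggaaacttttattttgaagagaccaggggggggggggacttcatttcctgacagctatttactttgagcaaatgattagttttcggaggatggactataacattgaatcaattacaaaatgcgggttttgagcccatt
Opalin held 3 such words, Mag, Cnp and Enpp6 held 1 each, and Pdgfra held none. The 5 shown do not represent the set. Among mature members not shown, Mbp held 3 and Aspa 1, while others, such as Mal, Pllp, Cldn11, Omg, Ugt8 and Tf, held none. Of 22 members with an entry in the promoter table, 6 (27.3%) held at least 1 word in any of their entries, against 7264 of 27457 genes (26.5%) counted in the same way. Over single entries the share was 8465 of 33469 promoters (25.3%). A match is a description of the letters alone.

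The precursor genes did not share the order of samples seen for most other members. Pdgfra, the growth factor receptor of precursors, had normalized signals of 1297 ± 31.9 (deposited SD) in FR30 HF, 1253 ± 60.6 in FR30 standard, 1311 ± 46.1 in control HF and 1306 ± 32.9 in control standard. The intervals of 1 SD overlapped in all 4 samples, and the differences lay between -0.06 and 0.05. Cspg4 had 510 ± 12.4 in FR30 HF, 583 ± 1.97 in FR30 standard, 556 ± 18.5 in control HF and 540 ± 10.3 in control standard. It was lowest in FR30 HF and highest in FR30 standard, with control offspring between them. On HF against standard diet Cspg4 differed by -0.26 in FR30 and by 0.06 in control offspring. FR30 minus control was -0.17 for HF-fed and 0.16 for standard-fed rats. Both genes are also made by cells outside the lineage, Cspg4 by pericytes and Pdgfra by fibroblasts of the meninges.

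Among the transcription factors, Sox10, which switches on myelin genes, stood higher in FR30 offspring on both diets. Its signals were 1116 ± 35.0 in FR30 HF, 1090 ± 28.6 in FR30 standard, 957 ± 30.7 in control HF and 995 ± 47.1 in control standard. Both FR30 samples lay above both control samples, by 0.26 on HF diet and by 0.15 on standard diet. Olig1 and Sox8 had the same order of prenatal groups, with differences of 0.16 and 0.10 on HF diet and of 0.06 and 0.13 on standard diet. Nkx6-2, a homeobox gene of maturing oligodendrocytes, was higher in FR30 offspring on HF diet by 0.12 and lower on standard diet, at -0.07. Olig2, the basic helix-loop-helix factor that sets the lineage, was not well above background in any sample, with signals between 167 and 171, so its probe gave no comparison.

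The early genes had no common order of samples. Enpp6, a choline phosphodiesterase that marks newly formed oligodendrocytes, had 187 ± 9.48 in FR30 HF, 222 ± 13.2 in FR30 standard, 189 ± 1.45 in control HF and 224 ± 8.03 in control standard. Both HF samples lay below both standard samples, whichever the prenatal group. In control offspring Enpp6 differed by -0.72 between HF and standard diet, the sole member past 1.5-fold (a log2 difference of 0.58) in any comparison with detection in both samples. In FR30 offspring the HF signal was not well above background, so that its fold there depends on how background is handled. With the dimmest signal detected in FR30 HF, or the probe's own where higher, as the floor, Enpp6 was at least 1.64-fold lower on HF diet after background correction, at least 1.41-fold lower with an offset of 50 and at least 1.18-fold lower on the authors' normalized signals. The probe lies close to background in all 4 samples: on the authors' normalized signals, from which no background was taken here, the difference in control offspring was -0.24, and with a larger offset it was -0.50. Bcas1, a gene of actively myelinating cells, had an FR30 minus control difference of 0.00 on HF diet and of -0.14 on standard diet. Tspan2, a tetraspanin of early myelin, was higher in FR30 offspring by 0.14 and 0.13 on HF and standard diet.

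**Figure D1:**
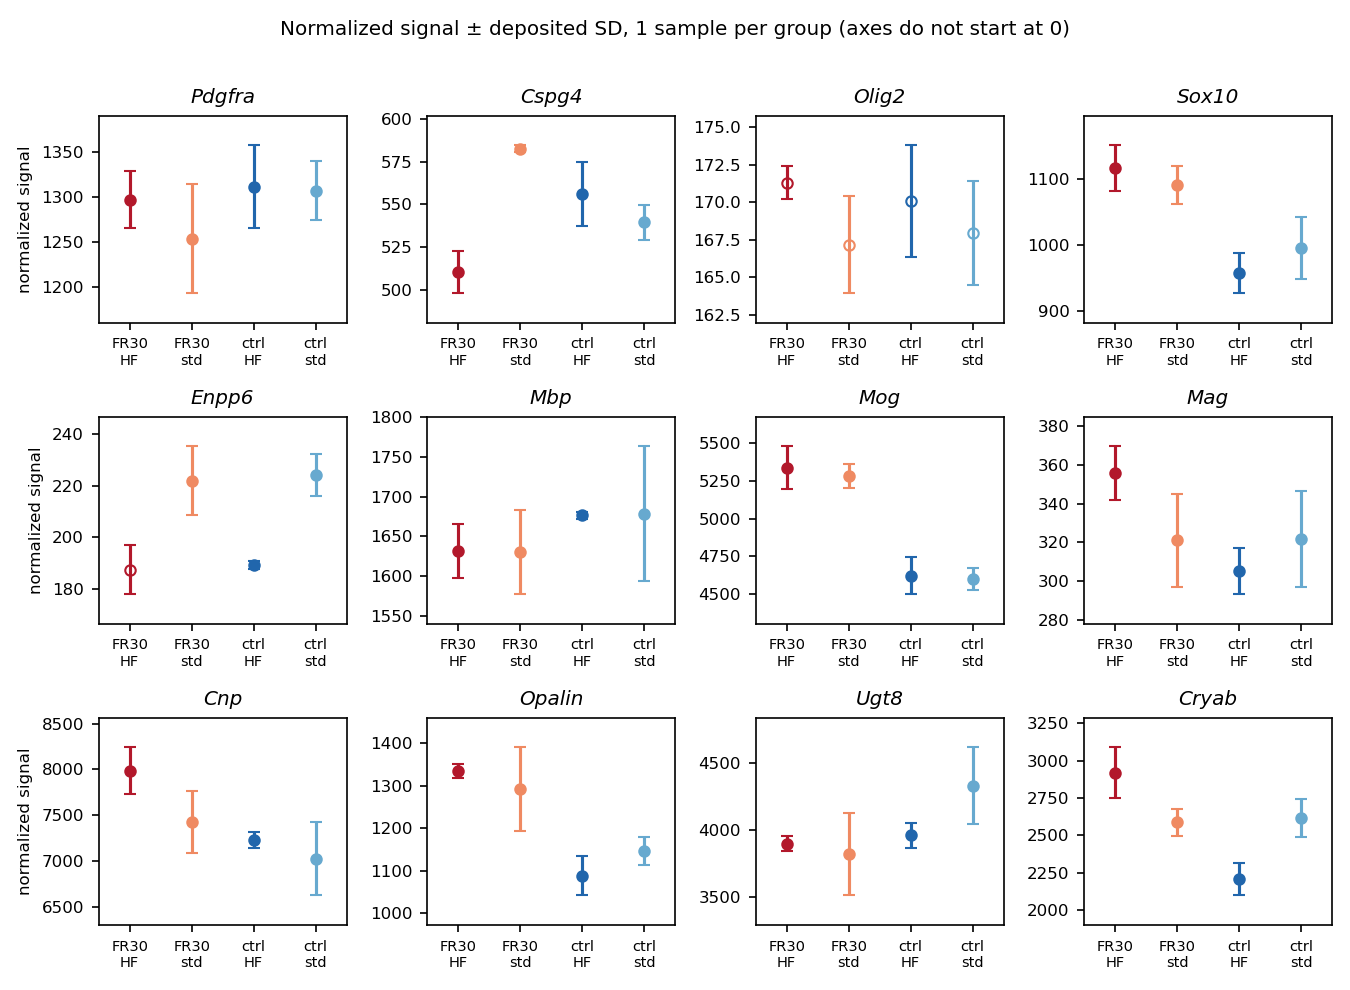
Normalized signal (linear units) of 12 member genes in FR30 HF, FR30 standard, control HF and control standard, 1 sample each; bars are the deposited SD, open points are samples where the probe was not detected, and the axes do not start at 0. Enpp6 is low in both HF samples (187 and 189), while Mog, Opalin and Sox10 are higher in both FR30 samples than in both control samples.

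Most mature myelin genes were higher in FR30 than in control offspring. Mog, a protein of the outer myelin surface, had 5337 ± 141 in FR30 HF, 5282 ± 78.0 in FR30 standard, 4622 ± 122 in control HF and 4600 ± 71.5 in control standard. Its FR30 samples lay above its control samples by 0.20 on HF diet and by 0.18 on standard diet, more than 2 deposited SD apart on each side on both, and the diets differed by at most 0.03. Opalin, a glycoprotein of the myelin of the central nervous system, had 1334 ± 16.7 in FR30 HF, 1292 ± 98.0 in FR30 standard, 1088 ± 45.9 in control HF and 1147 ± 32.3 in control standard. FR30 minus control was 0.32 for HF-fed and 0.19 for standard-fed rats. Both FR30 values lay above both control values, more than 2 deposited SD apart on HF diet but not on standard diet.

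Cnp, an enzyme of the loose myelin layers, had 7986 ± 254 in FR30 HF, 7422 ± 339 in FR30 standard, 7229 ± 91.1 in control HF and 7026 ± 402 in control standard. It too was higher in FR30 offspring on each diet (0.15 and 0.09), although only the HF pair was more than 2 SD apart. Mag, an adhesion protein at the inner face of the sheath, had 356 ± 13.8 in FR30 HF, 321 ± 23.9 in FR30 standard, 305 ± 11.9 in control HF and 322 ± 24.8 in control standard. Here FR30 HF stood alone at the top and control HF at the bottom, and the standard samples were nearly equal. The difference was 0.37 on HF diet, within 2 deposited SD on each side, and -0.03 on standard diet. The HF difference was 0.22 with the authors' normalized signals.

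Mbp, which holds the inner membrane faces together, did not share this order. Its probe gave 1632 ± 34.3 in FR30 HF, 1630 ± 53.0 in FR30 standard, 1676 ± 4.49 in control HF and 1679 ± 84.5 in control standard, so that both FR30 samples were slightly lower (-0.04 on each diet, and -0.0029 on HF diet with median scaling). Which transcripts of Mbp this probe reads was not analysed here. The remaining 6 myelin protein genes with a probe were Mal and Pllp, proteolipids of myelin rafts, Cldn11, which forms tight junctions, Gjb1 (connexin 32), a gap junction protein, Omg, a surface glycoprotein, and Pmp22, best known from peripheral myelin. All 6 were higher in FR30 offspring on HF diet, from 0.01 for Cldn11 to 0.19 for Pllp. On standard diet 5 of them were higher, from 0.05 for Cldn11 to 0.12 for Omg, and Gjb1 was not detected in FR30 standard.

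The myelin lipid enzymes were represented by Ugt8 and Aspa. Ugt8, which makes galactosylceramide, had 3896 ± 54.7 in FR30 HF, 3817 ± 308 in FR30 standard, 3959 ± 94.6 in control HF and 4329 ± 288 in control standard. Control standard was the highest sample and the other 3 were close together, with a difference between FR30 and control offspring of -0.02 on HF diet and of -0.19 on standard diet. Aspa, which frees acetate from N-acetylaspartate, was higher in FR30 offspring by 0.21 on HF diet and by 0.03 on standard diet, near background at signals between 197 and 206.

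Of the remaining genes of mature oligodendrocytes, Cryab, a small heat shock protein, showed the widest spread. Its signals were 2919 ± 169 in FR30 HF, 2587 ± 90.3 in FR30 standard, 2208 ± 109 in control HF and 2615 ± 127 in control standard. As for Mag, FR30 HF was highest and control HF lowest, 0.37 apart, while the standard samples differed by -0.02. All 9 genes of this group were higher in FR30 HF than in control HF, with a range that began at 0.03 for the neuregulin receptor Erbb3. Car2, a carbonic anhydrase, was higher in FR30 offspring by 0.19 on HF diet and by 0.15 on standard diet. Qdpr, which recycles tetrahydrobiopterin, was higher on HF diet by 0.15 and differed by -0.02 on standard diet. Tf, the iron carrier transferrin, differed by 0.17 and 0.06, Ndrg1 by 0.23 and 0.08, and Gpr37, an orphan receptor, by 0.13 and 0.03. Gsn, the actin-severing gelsolin, and Lpar1, a lysophosphatidic acid receptor, were highest in control standard and lowest in control HF. Members outside the 12 with values in every sample, and genes at the ends of a range, were chosen for naming after their values were seen.

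**Figure D2:**
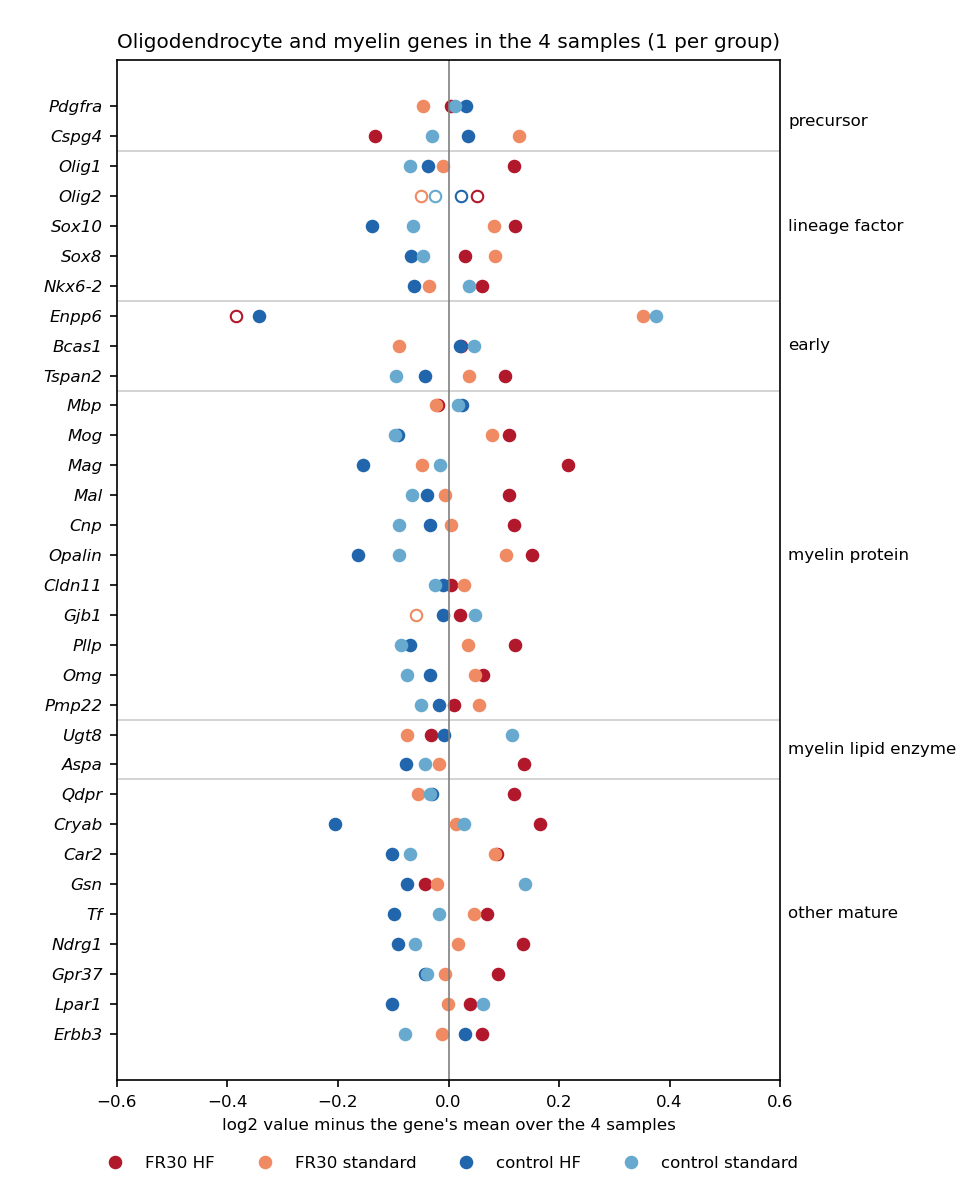
Log2 value of each member gene in each sample minus the mean of the gene over the 4 samples, with genes grouped by stage; open circles mark samples in which the probe was not detected. FR30 HF (dark red) is the highest sample for 19 of the 29 genes detected in all samples, and Enpp6 is the sole gene split widely by diet.

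Across the set, FR30 offspring on HF diet stood highest. Of 29 genes detected in all samples, 19 were highest in FR30 HF, against 27.6% of all 10100 genes detected in all samples. Control HF was the lowest sample for 13 (all genes, 23.5%), and 10 had both features (all genes, 9.05%): Sox10, Nkx6-2, Mag, Opalin, Aspa, Cryab, Car2, Tf, Ndrg1 and Gpr37. Both FR30 samples lay above both control samples for 17 of 29 genes (all genes, 25.2%) and below them for 3, namely Pdgfra, Mbp and Ugt8 (all genes, 19.0%). By stage, the 17 were 3 of 4 transcription factors, 1 of 2 early genes, 8 of 10 myelin protein genes, 1 of 2 lipid enzymes, 4 of 9 other mature genes and no precursor gene. The FR30 sample was the higher on both diets for 18 (all genes, 34.1%). The diets separated few members: both HF samples were above both standard samples for 2 (all genes, 16.5%) and below them for 1 (all genes, 13.5%). The median deviation from the mean of the 4 samples was 0.09 in FR30 HF, 0.00 in FR30 standard, -0.04 in control HF and -0.04 in control standard.

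On HF diet, FR30 against control offspring gave 26 of 30 member genes detected in both samples as higher and 4 as lower, with a median of 0.14. Over all 10347 genes detected in both samples 51.4% were higher and 48.2% lower, around a median of 0.00. The 4 lower genes were Cspg4, Pdgfra, Mbp and Ugt8. With median scaling Ugt8 was at 0.03, Pdgfra at 0.0052, Mbp at -0.0029 and Cspg4 at -0.16. The values of the other 26 ran up to 0.37 for Mag and Cryab. No member passed 1.5-fold (all genes, 0.802%). Signals lay more than 2 deposited SD apart on each side for 9 members, all higher (all genes, 5.9% higher and 6.51% lower, or 12.4% in all): Sox10, Tspan2, Mog, Mal, Cnp, Opalin, Qdpr, Cryab and Car2. With 3 deposited SD in place of 2, 1 member remained that far apart, and the share of all genes at 3 SD is not given here.

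On standard diet the same prenatal contrast gave 19 of 30 members as higher and 11 as lower, with a median of 0.06 (0.024 with median scaling and 0.034 with the authors' normalized signals), while the shares of all genes were 56.2% higher and 43.4% lower and their median was 0.02. The range was from -0.19 for Ugt8 to 0.19 for Opalin, and no member passed 1.5-fold (all genes, 0.776%). Signals were more than 2 deposited SD apart for 3 members, all higher, which were Cspg4, Mog and Omg (all genes, 5.37% higher and 6.27% lower, or 11.6% in all). The median was 0.10 for 10 myelin protein genes, of which 8 were higher, and 0.03 for the 9 other mature genes, of which 5 were higher.

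HF against standard diet in FR30 offspring gave 24 of 29 members as higher and 5 as lower, with a median of 0.05 (all genes, 48.6% higher and 51.0% lower). Mag (0.26) was the highest and Cspg4 (-0.26) the lowest. More than 2 deposited SD separated 3 members (all genes, 6.28%), Mal and Qdpr (higher; all genes, 2.65%) and Cspg4 (lower; all genes, 3.63%). In control offspring the same diet contrast gave 14 of 31 members as higher and 17 as lower, with a median of -0.02 (all genes, 53.8% higher and 45.8% lower, median 0.01). After Enpp6, past 1.5-fold as given above (all genes, 0.587%), the lowest were Cryab (-0.23) and Gsn (-0.21), and Erbb3 (0.11) was the highest. Enpp6 alone was more than 2 deposited SD apart (all genes, 6.4% lower and 4.64% higher). With median scaling in place of quantile normalization 7 of the 31 members were higher (all genes, 47.8%). The 4 comparisons share samples, so these counts are not independent of each other.

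**Figure D3:**
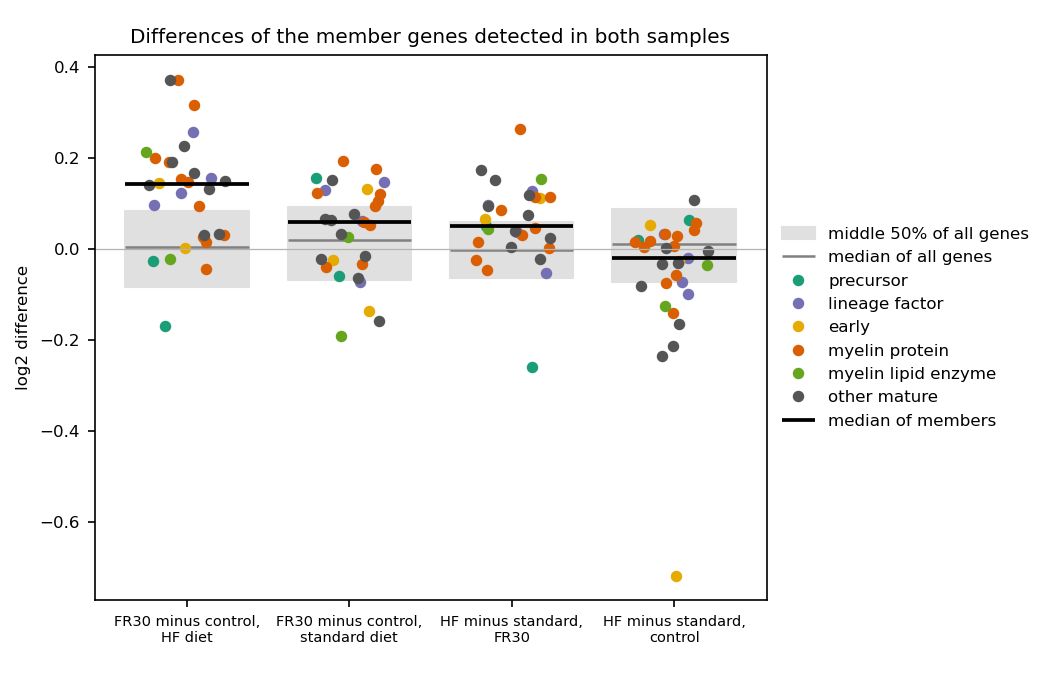
Log2 differences of the member genes detected in both samples of each comparison (points, coloured by stage), with the member median (black line), the median of all genes (grey line) and the middle 50% of all genes (grey band). The member median is 0.14 for FR30 minus control on HF diet, and Enpp6 is the low point of HF minus standard in control offspring.

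The signed diet difference, HF minus standard, was higher in FR30 than in control offspring for 22 of 29 members (all genes, 46.9%), with a median gap of 0.10. For 9 of these 22, Cryab among them, the diet difference was the smaller in size in FR30 offspring. The gap was widest for Mag (0.40) and Cryab (0.39), and Cspg4 had the opposite gap of -0.32. For 13 members the HF sample lay above the standard sample among FR30 rats and below it among control rats (all genes, 20.1%). No gap reached 1.5-fold (all genes, 1.24%), and with 1 sample per group the gap could not be tested.

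Prenatal group and diet were tested together in an additive limma fit over all genes detected in the 4 samples, where the spread comes from the interaction of the 2 factors. After Benjamini-Hochberg adjustment over all 10100 genes, limma called 0 of 29 members for prenatal group (all genes, 0.0099%, the single locus LOC499408) and 0 of 29 for diet (all genes, 0.0%). At an unadjusted p under 0.05 there were 4 members for prenatal group (all genes, 12.7%) and 0 for diet (all genes, 7.12%). The 4 were Opalin with 0.25 ± 0.06 (SE, adjusted p = 0.252), Sox10 with 0.20 ± 0.06 (adjusted p = 0.324), Mog with 0.19 ± 0.06 (adjusted p = 0.323) and Car2 with 0.17 ± 0.06 (adjusted p = 0.348). A share of 4 in 29 is close to that of all genes. The fitted prenatal difference was positive for 23 of 29 members, with a median of 0.11 (all genes, 55.4% positive, median 0.01), and the fitted diet difference for 16 of 29 (all genes, 54.1%). With the authors' normalized signals 8 of 29 members had an unadjusted p under 0.05 for prenatal group (all genes, 13.9%), and limma again called 0 members after adjustment.

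Further genes of the lineage that are not in the set were read from lists of the same kind. Of 28 other genes of mature oligodendrocytes 18 were detected in both HF samples. In FR30 against control offspring 16 of them were higher (all genes, 51.4%), with a median of 0.07 (all genes, 0.00). Tmem125 (0.45), Ppp1r14a (0.33), Ninj2 (0.32) and the sphingosine-1-phosphate receptor S1pr5 (0.25) differed most. On standard diet 12 of 17 were higher (all genes, 56.2%), with a median of 0.04 (all genes, 0.02) and Ninj2 (0.37) the highest. Of 20 other genes of precursors and early cells, 14 were detected in both HF samples. In FR30 offspring 7 were higher and 7 lower (all genes, 51.4% and 48.2%), with a median of 0.00. On standard diet 4 of 13 were higher and 9 lower (all genes, 56.2% and 43.4%), with a median of -0.10. Tnr, an extracellular matrix protein, had 700 in FR30 HF, 784 in FR30 standard, 954 in control HF and 942 in control standard, with differences of -0.53 on HF diet and -0.32 on standard diet. Sox6, which keeps precursors immature, differed between FR30 and control offspring by -0.33 on HF diet and by -0.63 on standard diet. Its signals were low, at 205 in FR30 HF, 211 in FR30 standard, 224 in control HF and 253 in control standard. Other genes of this list lay on the opposite side: FR30 minus control was 0.43 for Bmp4 and 0.36 for Mycl on standard diet, and 0.25 for Vcan on HF diet. The Bmp4 signals were low as well, at 270 in FR30 standard and 235 in control standard. Tcf7l2, a Wnt effector of newly formed oligodendrocytes that thalamic neurons also make, was lower on HF diet in FR30 (-0.51) and in control offspring (-0.47).

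Genes listed as markers of neighbouring tissue differed along with some of these comparisons. Of 13 thalamus marker genes 12 were detected in all samples, with summed signals of 9498 in FR30 HF, 10410 in FR30 standard, 8275 in control HF and 10736 in control standard. Their median for FR30 against control offspring on HF diet was 0.19, with 11 of 12 higher (all genes, 51.4%). For HF against standard diet in control offspring it was -0.47, with 12 of 12 lower (all genes, 45.8%). On standard diet it was -0.01 for FR30 against control offspring, with 6 higher and 6 lower (all genes, 56.2% and 43.4%). In FR30 offspring it was -0.11 for HF against standard diet, with 2 higher and 9 lower (all genes, 48.6% and 51.0%). Of 10 midbrain dopamine neuron genes 6 were detected in all samples, with summed signals of 8562, 6514, 5767 and 5674 in the same order of samples. Slc6a3, the dopamine transporter, was higher by 2.72 in FR30 HF than in control HF. The median of the 6 for FR30 against control offspring was 0.36 on HF diet and 0.16 on standard diet. For HF against standard diet it was 0.32 in FR30 and 0.02 in control offspring. Ddc, Pitx3 and Foxa2 were not detected in any sample, and whether the 6 detected genes came from midbrain or hypothalamus was not tested. Of 8 genes of choroid plexus and pituitary, Ttr had 1251 in FR30 HF, 209 in FR30 standard, 183 (not detected) in control HF and 523 in control standard, and Prl had 240, 313, 159 (not detected) and 759 in the same order. Clic6 had 202, 187 (not detected), 194 and 194, and Pomc had 3497, 2318, 2368 and 2029, in that order too. Pomc was the only gene of this list detected in all samples, and whether it came from pituitary or hypothalamus was not tested. Cga, Kl and Folr1 were not detected in any sample, and Gh1 had no probe. The part of other tissue in the member differences was not tested.

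Lists of other cell types were near 0 on HF diet, while the astrocyte list was about as far above 0 as the members on standard diet. The median difference between FR30 and control offspring on HF diet was -0.01 for 9 astrocyte genes, -0.03 for 7 microglial genes and 0.03 for 12 neuronal genes. On standard diet these medians were 0.07, -0.01 and -0.02. The astrocyte sum was 93066 in FR30 HF, 93244 in FR30 standard, 92446 in control HF and 89480 in control standard, and the sum of the 29 members was 124284, 119066, 113210 and 116541 in the same order. The microglial sum was 6656, 6452, 6893 and 6577, and the neuronal sum 86853, 87588, 85682 and 88950, in that order too. Such sums are carried by the brightest probes.

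**Figure D4:**
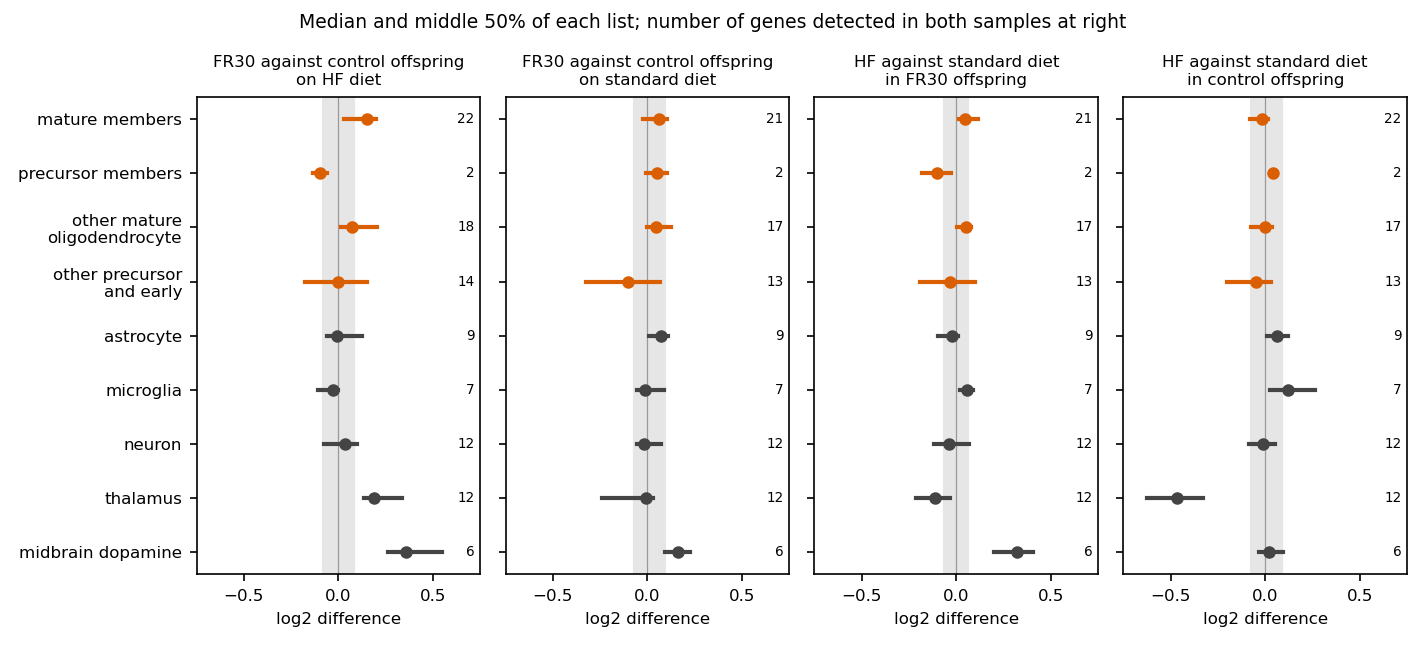
Median log2 difference (point) and middle 50% (bar) of each gene list in the 4 comparisons, with the number of genes detected in both samples at the right and the middle 50% of all genes as a grey band; oligodendrocyte lists are orange. Mature members and thalamus markers are both shifted up for FR30 against control on HF diet, at 0.15 and 0.19, and thalamus markers are at -0.47 for HF against standard in control offspring.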

How the data were processed

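Hypothalamic RNA of 4 samples, 1 per group, was measured on Illumina rat bead arrays. Per the file headers, the authors deposited a non-normalized and a normalized intensity per probe, each with a detection p-value, and an SD beside each signal. GenomeStudio is named in the submitters' processing notes; for its settings and the array's slides, the sources used here give nothing. Another deposited table held the same values as the normalized one (largest difference 0).

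The non-normalized intensities were background-corrected and quantile-normalized with neqc of limma 3.58.1 (R 4.3.3, offset 16), giving log2 values computed here; signals in the text are the authors' normalized intensity. The brightest probe stood for a gene. Genes entered a comparison when detected at p under 0.01 in both samples. Pairwise differences have no test. The additive fit (lmFit, eBayes) had 1 residual degree of freedom and a prior of 3.83, with Benjamini-Hochberg adjustment at 0.05; its code was tested on simulated data. The distance between a pair of samples was read from the deposited SD. Figures were drawn with matplotlib 3.10.9 under Python 3.11.15.

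Values in every sample are given for 12 core members or members that differed by at least 0.26 (log2); up to 4 genes per comparison are named from each further list, those with the largest differences. The members and lists were chosen with earlier results of these data known. Of the probes, 10291 carried a current RefSeq symbol and 4966 an older one. Ermn has a probe under an older name, outside the rule, with an FR30 HF minus control HF difference of 0.07; Fa2h has one that was not detected. Alternatives were the authors' normalized intensity, median scaling, an offset of 50, detection at 0.05, no detection filter, the mean of a gene's probes and 3 deposited SD. The number of arrays limits the precision.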

Additional observations from a re-analysis of the deposited data

Results flagged for a closer look

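For 3 of the 12 members given in every sample, the diet difference had opposite signs in FR30 and control offspring. After background correction it was larger than the deposited spread of that difference in both. The spread itself was taken from the authors' normalized signals, without background correction. On those signals the control-offspring differences of Cspg4 (0.043) and Mag (-0.077) were within their spreads (0.055 and 0.12). That of Cryab (-0.24) was beyond its spread (0.10). For Cspg4, HF against standard diet differed by -0.26 in FR30 and by 0.064 in control offspring. For Mag it differed by 0.26 in FR30 and by -0.14 in control offspring, and for Cryab by 0.15 in FR30 and by -0.23 in control offspring. By the same measure Cspg4 also had opposite signs of the prenatal difference, with -0.17 on HF diet and 0.16 on standard diet. Mag (0.37 on HF and -0.03 on standard diet) and Cryab (0.37 and -0.02) had opposite signs too, but their standard-diet values were within the deposited spread. So was the diet difference of Opalin in FR30 offspring (0.05, against -0.07 in control offspring). With 1 sample per group each sign rests on a single pair of samples, and the difference between the groups was not tested.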

How the results depend on the processing

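Of 252 recomputed differences of the named members 7 moved by more than their deposited spread, among them that of Ugt8 between FR30 and control offspring on HF diet, which was 0.03 with median scaling (-0.02 as reported); the member median for FR30 against control offspring on HF diet stayed between 0.13 and 0.18, and that on standard diet lay between 0.02 and 0.06. With median scaling 7 members (14 as reported) were higher on HF diet in control offspring, with 47.8% of all genes higher (53.8% as reported). The count past 1.5-fold there was 0 (1 as reported) with the authors' normalized intensity and with an offset of 50, and in FR30 offspring it was 1 (0 as reported) with detection at 0.05 or no detection filter, which admit Enpp6. With 3 deposited SD, 1 member (3 as reported) stood apart for HF against standard diet in FR30 offspring and 1 (9 as reported) for FR30 against control offspring on HF diet. The shares of all genes at 3 SD are not given here. The additive limma fit called 69 genes for prenatal group and 3 for diet with the authors' normalized intensity, and 7 and 2 with an offset of 50, against 1 and 0 as reported; the cause was not tested. It called 0 members under all 6 alternatives. The count of members with both FR30 samples above both control samples, chosen after seeing the data, was 16 or 17 (17 as reported). The alternatives for the Enpp6 bound in FR30 offspring and for the counts of members in the additive fit were also chosen after seeing the data. No paired analysis was possible because each group holds 1 sample. No sample could be left out, since no residual degree of freedom would remain, and a slide block was not run because the files used here name no slide. Enpp6, Aspa, Gjb1 and Erbb3 lie close to background, which limits their differences. Sox6 and Bmp4 of the further lists also had low signals, with the same limit.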
